A study of Rattus norvegicus with 6 samples.

Results

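The histone genes were followed through total RNA-seq of 6 clonal INS-1 lines, a rat insulinoma cell line used as a model of the pancreatic β-cell. Members were taken by name from the table of 32900 features: 57 rows carried a histone symbol beginning with Hist, H1f, H2af or H3f, and the 54 with any read in the 6 lines, of 21250 features with a read, are described here. Of these, 44 were clustered genes (Hist symbols, of histone families H1, H2A, H2B, H3 and H4) and 10 were variant genes (H1f, H2af and H3f symbols). The 3 rows without a read were H1foo, H1fnt and H2afb3, which are germ-line histone genes.

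All lines descended from INS-1(832/13)::mCherry cells, which carry an insulin C-peptide-mCherry transgene, and were grown in RPMI medium with 7.5 mM glucose without further treatment. The 3 Control lines, 5-9, 2 and 16, carried a deletion of the Prader-Willi syndrome (PWS) imprinted domain on the silent maternal allele only, so no line had 2 intact alleles. In the 3 PWS lines, 3, 19-1 and 19-4, the active paternal allele was deleted as well. Line 5-9 was the source of every other line, and 19-1 and 19-4 were subclones of line 19, so that the PWS lines stand for 2 independent clones. With 1 library per line, the p-values below measure the spread between these lines.

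Cells need new histones in S phase, when the replicated DNA is packed into nucleosomes, in which DNA wraps around H2A, H2B, H3 and H4 while H1 binds the linker between them. The clustered, replication-dependent genes supply this bulk from short intronless transcripts that end in a stem-loop in place of a poly(A) tail. The stem-loop binding protein Slbp holds that stem-loop, and the mRNAs are made in S phase and destroyed at its end. Variant genes lie outside the clusters. Most, though not all, carry introns and poly(A) tails and are transcribed throughout the cell cycle, and variant proteins replace the bulk forms at particular sites. Libraries made by rRNA depletion, as here, keep transcripts without a poly(A) tail.

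Both kinds are also known for different promoter elements. The 250 bases before the start site, read from RefSeq promoters of the rat build GRCr8, are shown for Hist1h1a and Hist1h2ah, clustered genes whose groups did not overlap and whose reads were nearly all unique, for the window that Hist2h2be shares with Hist2h2ac, and for the variants H2afz and H3f3a. Each is written 5′ to 3′ on the gene's strand, and the capitals mark the TATA box (TATAAA), the CCAAT box, the octamer (ATGCAAAT) and the H1 box (AAACACA), each searched by these exact letters on both strands.
Hist1h1a (RefSeq H1f1, chr17:41794869-41795118, minus strand): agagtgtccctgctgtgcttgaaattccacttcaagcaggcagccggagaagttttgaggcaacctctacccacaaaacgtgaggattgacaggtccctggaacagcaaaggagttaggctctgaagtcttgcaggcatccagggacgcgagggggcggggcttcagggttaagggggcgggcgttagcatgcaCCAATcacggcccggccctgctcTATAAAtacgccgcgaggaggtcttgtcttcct
Hist1h2ah (chr17:41812128-41812377, plus strand): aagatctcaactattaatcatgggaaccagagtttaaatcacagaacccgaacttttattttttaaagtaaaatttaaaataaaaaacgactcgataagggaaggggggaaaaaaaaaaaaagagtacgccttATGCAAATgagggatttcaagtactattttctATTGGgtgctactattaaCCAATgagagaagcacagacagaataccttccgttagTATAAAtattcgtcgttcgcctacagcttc
Hist2h2be (chr2:186469202-186469451, plus strand): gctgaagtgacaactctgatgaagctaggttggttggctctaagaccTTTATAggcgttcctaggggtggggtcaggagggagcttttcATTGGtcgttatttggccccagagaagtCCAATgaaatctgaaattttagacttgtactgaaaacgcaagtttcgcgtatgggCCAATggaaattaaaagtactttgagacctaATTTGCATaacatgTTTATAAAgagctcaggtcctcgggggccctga
H2afz (RefSeq H2az1, chr2:229028845-229029094, plus strand): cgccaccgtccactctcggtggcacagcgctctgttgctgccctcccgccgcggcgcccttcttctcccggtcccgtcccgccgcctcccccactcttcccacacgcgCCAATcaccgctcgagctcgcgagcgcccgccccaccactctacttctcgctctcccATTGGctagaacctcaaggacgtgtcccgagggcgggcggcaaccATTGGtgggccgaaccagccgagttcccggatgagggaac
H3f3a (chr13:95076696-95076945, minus strand): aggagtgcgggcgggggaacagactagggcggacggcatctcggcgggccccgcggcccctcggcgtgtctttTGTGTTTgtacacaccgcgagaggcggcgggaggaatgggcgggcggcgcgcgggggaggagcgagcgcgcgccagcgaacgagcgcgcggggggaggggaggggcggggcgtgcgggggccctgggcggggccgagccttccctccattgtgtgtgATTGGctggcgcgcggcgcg

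In the first 3 windows a TATA box began 33, 30 and 31 bases before the start, whereas neither variant window held it. Names could be tied to a single RefSeq promoter for 25 of the 44 clustered and 8 of the 10 variant genes. Of the 25 clustered windows, 18 (72.0%) held a TATA box on either strand, against 1 of the 8 variant windows and 12.9% of all 33469 rat promoter windows of this length. Written on the gene's own strand and beginning 28 to 36 bases before the start, as in the first 3 windows shown, it stood in 9 of the 25 clustered and 0 of the 8 variant windows. A CCAAT box was found in 23 clustered windows (92.0%), in 5 variant windows and in 34.0% of all. The octamer, the site known from H2B promoters, stood in 10 clustered windows (40.0%), in 1 variant window, that of H3f3b, and in 1.56% of all. For the H1 box the counts were 6 clustered windows (24.0%), 1 variant window and 6.08% of all. Among the 17 windows of tested clustered genes 2 (11.8%) held the H1 box, those of Hist1h2aa and Hist1h2ba, which overlap. No motif contains another, though the TATA box overlaps its own reverse complement in the Hist2h2be window. Windows of the head-to-head pairs given below overlap on opposite strands, so a site in their shared bases was counted for both genes. The clustered windows are thus not all separate, and the counts describe these windows only.

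Several clustered genes were paired head to head, an H2A gene and an H2B gene on opposite strands reading away from 1 stretch of promoter. By the GRCr8 windows, Hist2h2ac and Hist2h2be shared 225 of the 250 bases, Hist1h2aa and Hist1h2ba shared 239, and Hist1h2ai and Hist1h2bo shared 237. The Hist2h2be window therefore also serves as the promoter window of Hist2h2ac read on the other strand, on which the capitals toward its 5′ end form a TATA box and a CCAAT box.

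Between 26016478 and 36084261 reads per line were counted under nonunique all counting, which adds a read to every gene it can be assigned to, whether it aligns at several places or lies over overlapping genes, and is the counting used below unless another is named. Reads with 1 alignment, over 1 gene, which nonunique none counting keeps, are called unique and the rest shared. Snrpn, inside the deleted domain, had 3149 to 3956 normalized counts in the Control lines and at most 4 reads in any PWS line. Levels are normalized counts, which are reads divided by the DESeq2 size factor of each line, and 3 reads, the limit that a count of 0 allows, correspond to 2.73 to 3.59 normalized counts. All 8 β-cell markers were detected, with summed levels of 503444 to 574981 normalized counts in Control and 265908 to 472584 in PWS lines. Ins1 and Iapp made up most of these sums and were lower in each PWS line than in any Control line. Groups overlapped for Ins2, Pdx1, Nkx6-1, Mafa, Slc30a8 and Pcsk1. Of the 5 acinar markers none reached a mean of 5 normalized counts and 3 were at 0 in every line. The other islet, the ductal and the stromal and blood markers each had 1 gene at a mean of 5 or more. Their summed levels were 2.75 to 19.9, 7.34 to 19.0 and 31.3 to 35.8 normalized counts in Control and 13.2 to 100.009, 15.5 to 26.3 and 30.6 to 33.6 in PWS lines. The top of the islet range was Gcg in PWS line 19-4, which was also the lowest line for most clustered histone genes, and its part in the histone values was not tested. Control line 2 stood apart for the histones: it was the highest of the 6 lines for 20 of 31 tested clustered genes and 9 of 10 variants, against 24.5% of all tested genes. PWS line 19-4 was the lowest for 19 of the 31 and 5 of the 10, against 20.3% of all tested genes.

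To see whether the PWS lines carried less histone mRNA, counts were first summed over the 44 clustered genes in each line. The sums were 149827, 183154 and 131507 normalized counts in the Control lines (5-9, 2 and 16), and 133431, 126241 and 117454 in PWS lines 3, 19-1 and 19-4. The groups overlapped, since line 3 exceeded Control line 16, and the means were 154829 ± 26184 (SD, n = 3) and 125709 ± 8002 (SD, n = 3), a log2 difference of -0.29. Without Control line 2 the log2 difference was -0.16, and without Control line 16 it was -0.40. The difference between the means was of the size of the Control SD. In these bulk libraries, fewer cells in S phase and less histone mRNA per S-phase cell cannot be told apart.

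For the 10 variants the sums were 45780, 50567 and 42991 in Control lines and 42960, 43815 and 42427 in PWS lines, again overlapping, with a log2 difference of -0.11. The ratio of the clustered to the variant sum was 3.27, 3.62 and 3.06 in Control lines 5-9, 2 and 16 and 3.11, 2.88 and 2.77 in PWS lines 3, 19-1 and 19-4. PWS line 3 lay above Control line 16 in this ratio too. Counted from unique reads alone, the clustered sums were 91913, 104905 and 79690 in Control lines and 80213, 77718 and 71752 in PWS lines, so the overlap between lines 16 and 3 stayed when shared reads were dropped.

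**Figure D1:**
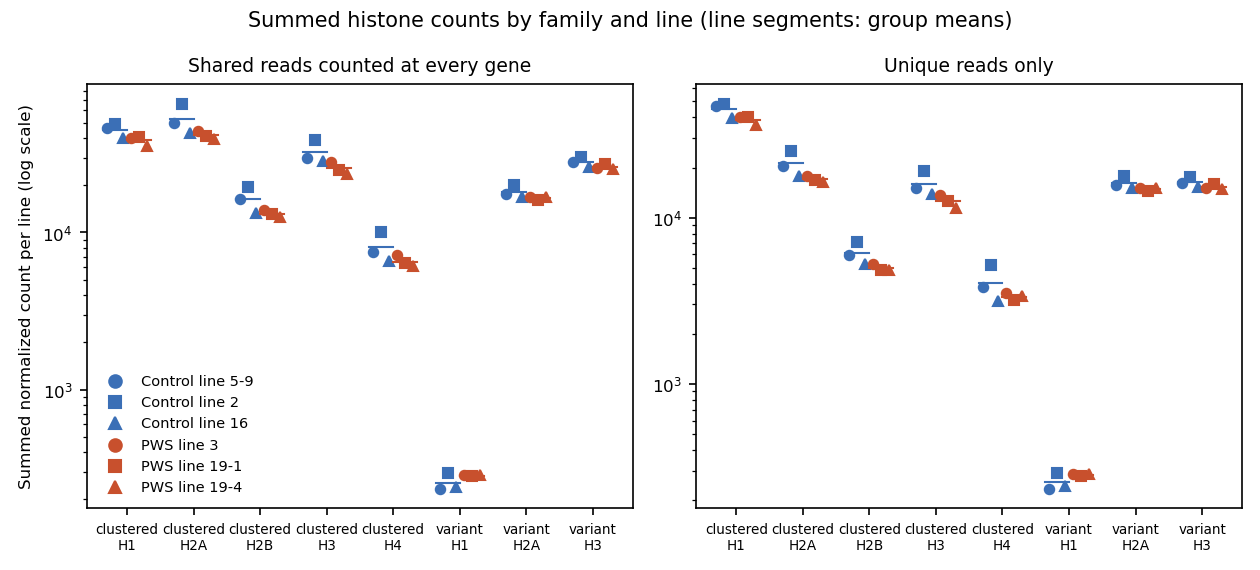
Summed normalized counts (log scale) of each histone family in each line, with shared reads counted at every gene (left) and unique reads only (right). Points are lines, 3 Control in blue and 3 PWS in orange, and line segments are group means. Control line 2 (blue squares) tops the clustered families in both panels, and only variant H1 (H1fx) has the PWS mean above the Control mean.

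Every clustered family had a lower mean sum in PWS than in Control lines. The clustered H1 genes, which encode linker histones, went from 45085 ± 4757 to 38815 ± 2666 (SD, n = 3 each). Clustered H2A went from 52924 ± 11775 to 41528 ± 2386, and clustered H2B from 16364 ± 3090 to 13165 ± 681. For the core histone H3 the means were 32421 ± 5497 and 25669 ± 2247, and for H4, which forms the centre of the nucleosome with H3, they were 8035 ± 1779 and 6532 ± 547. Which families overlapped depended on the counting. With shared reads at every gene, groups overlapped in H1, H2A, H2B and H4, while the clustered H3 sums were 29862, 38731 and 28669 in Control and 28121, 25177 and 23709 in PWS lines and did not. The H3 sum includes the gene ENSRNOG00000049198, described below, which was at 33.5 and 26.4 normalized counts in the line 19 subclones. From unique reads, to which that gene adds almost nothing, the H3 sums were 15113, 19049 and 13797 in Control against 13595, 12506 and 11471 in PWS, again without overlap and with a narrow gap between lines 16 and 3. Unique H2A (17772 in the lowest Control and 17699 in the highest PWS line) and H2B (5276 and 5237) did not overlap either. With RSEM the H3 sums did overlap (10053 in the lowest Control and 10348 in the highest PWS line), as did the H2B sums (8397 and 8794), while the H2A sums did not (17661 and 17481).

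Gene by gene, 41 members averaged 5 or more normalized counts over the lines and were tested, 31 clustered and all 10 variants. The other 13 clustered genes had means of 0.152 to 3.90 normalized counts and were not tested. Among them, Hist1h4m, Hist1h4b and Hist2h4 had the same value as each other in every line, of at most 2.39 normalized counts. RSEM gave these 3 H4 genes, again equal to each other, 1067, 1536 and 943 in Control and 1013, 815 and 925 in PWS lines. Counting at every gene gave them at most 2 reads in any line, so their level differed between the deposited tables, and the cause was not tested. Hist1h1t, the testis form of H1, had at most 4.78 normalized counts.

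In limma's test over 15579 genes, none of the 41 members passed an adjusted p of 0.05, where 0.257% of all tested genes did. At an unadjusted p under 0.05 there were 5 clustered genes (16.1%) and 1 variant, all lower in PWS lines, against 11.3% of all tested genes. The edgeR test on the recovered reads also called no member, against 0.205% of all genes, with 4 clustered and 2 variant genes under an unadjusted p of 0.05 (11.4% of all genes). DESeq2 called none either, against 1.46% of all genes, with 14 clustered and 2 variant genes under an unadjusted p of 0.05 (10.4% of all genes). At a DESeq2 adjusted p under 0.1, which 2.37% of all genes passed, Hist1h2bk was the only member (adjusted p = 0.0926).

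Most clustered genes nevertheless had log2 fold changes (PWS minus Control, on log2(normalized count + 1)) on the same side. They were below 0 for 26 of 31 clustered genes (83.9%) and above 0 for 5, with a median of -0.27, and below 0 for 8 of 10 variants, with a median of -0.12. Over all tested genes 50.7% were below 0 and the median was -0.003. The clustered medians by family were -0.21 for H1 (2 genes), -0.31 for H2A (13), -0.27 for H2B (9) and -0.24 for H3 (6), and the single tested H4 gene stood at -0.28. Genes with at least 50% unique reads (10 clustered genes) had a median of -0.27, as did the 21 with fewer. These genes share lines and scaling, and their number is no measure of certainty.

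Both medians depended on Control line 2. Without it the clustered median was -0.12 and the variant median -0.04, and without Control line 16 they were -0.41 and -0.17. Set against the Control mean, the median clustered gene stood at -0.04, 0.28 and -0.22 on the log2 scale in Control lines 5-9, 2 and 16, and at -0.19, -0.30 and -0.31 in PWS lines 3, 19-1 and 19-4. The PWS lines were close to each other, and Control line 16 was within their range while line 2 was far above.

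**Figure D2:**
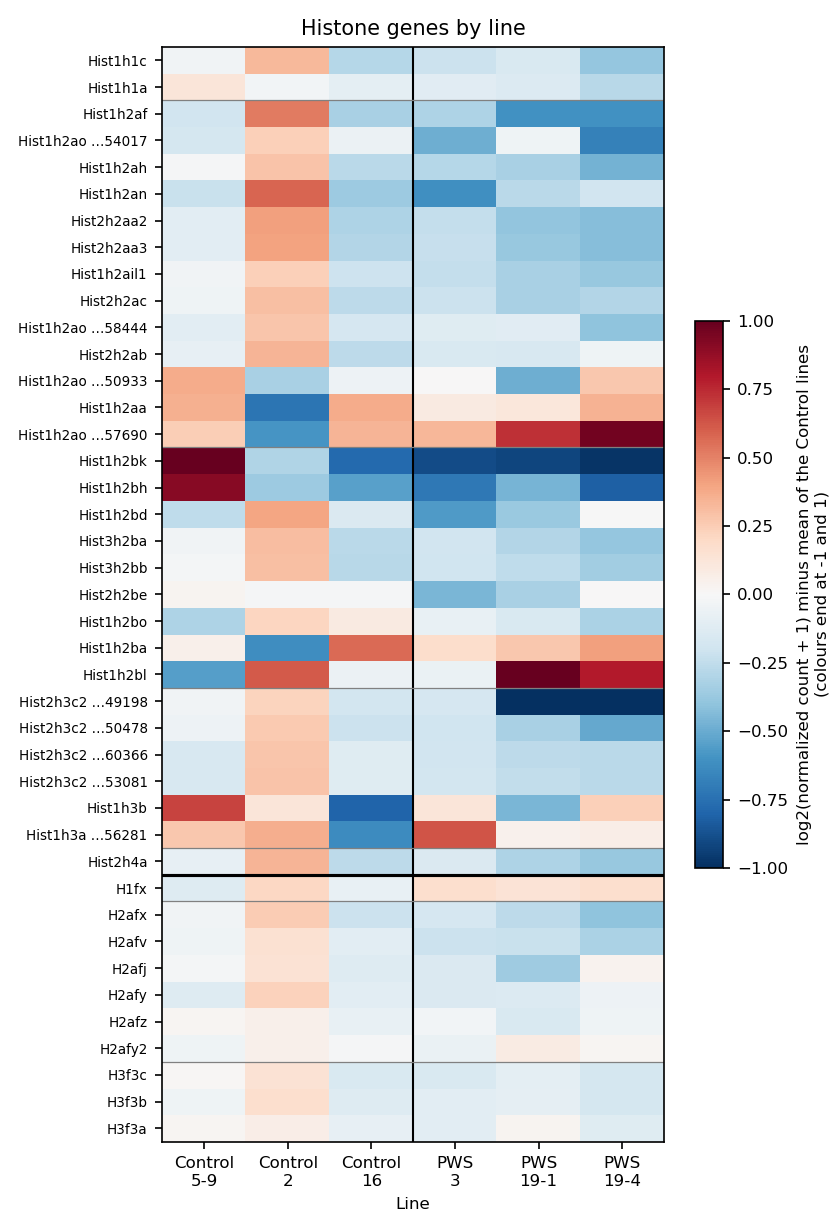
Level of each tested histone gene (rows, 31 clustered above the thick line and 10 variant below, by family) in each line (columns), as log2(normalized count + 1) less the average of the 3 Control lines. Colours end at -1 and 1. Control line 2 is red for most rows, and the cells of Hist2h3c2 ENSRNOG00000049198 in lines 19-1 and 19-4 and of Hist1h2bk and Hist1h2bh in line 5-9 stand out from their rows.

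For 6 of the 31 clustered genes (19.4%) all PWS lines lay below all Control lines, where 9.01% of all tested genes did, and for none did they all lie above, where 8.43% of all tested genes did. The 6 were Hist1h1a, Hist1h2ah, Hist1h2ail1, Hist1h2bk and the Hist2h3c2 genes ENSRNOG00000060366 and ENSRNOG00000053081. Of these, Hist1h2ah, Hist1h2ail1 and both Hist2h3c2 genes were singled out after their values were seen. Left-out lines moved the count: 18 clustered genes did not overlap without Control line 16 (14.4% of all tested genes) and 14 without PWS line 3 (15.7% of all tested genes).

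Hist1h1a, a linker histone gene with 99.8% unique reads, had 28496, 25689 and 24497 normalized counts in the Control lines (5-9, 2 and 16) and 24167, 23773 and 21551 in PWS lines 3, 19-1 and 19-4. The gap between the groups was small beside their spread, and the log2 fold change was -0.18 (standard error 0.09, limma adjusted p = 0.497). The other tested linker histone gene, Hist1h1c, had 18099, 23213 and 15256 in Control and 16033, 16717 and 14187 in PWS lines. Its groups overlapped through Control line 16, giving a log2 fold change of -0.25 (standard error 0.15, limma adjusted p = 0.559). Leaving out Control line 2 gave -0.09, and leaving out line 16 gave -0.39.

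Hist1h2ah, an H2A gene with 99.9% unique reads, had 9140, 11236 and 7680 normalized counts in Control and 7566, 7369 and 6665 in PWS lines. Control line 16 was only slightly above PWS line 3, and the log2 fold change was -0.36 (standard error 0.13, limma adjusted p = 0.370). Hist1h2ail1, with 95.2% unique reads, had 7844, 9506 and 6984 in Control and 6831, 6424 and 6191 in PWS lines. It too was separated by a narrow gap between lines 16 and 3, giving a log2 fold change of -0.31 (standard error 0.11, limma adjusted p = 0.365). Hist1h2af, the H2A gene with the smallest log2 fold change, had 108, 178 and 98.6 in Control and 100, 81.3 and 80.9 in PWS lines (-0.51, standard error 0.24, limma adjusted p = 0.468). Here the Control mean rested on line 2 and the groups overlapped.

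Hist2h2aa2, the H2A gene with the highest mean, had 12302, 17581 and 10665 normalized counts in Control and 11229, 10056 and 9854 in PWS lines. Its near copy Hist2h2aa3 had 11375, 16220 and 9993 in Control and 10439, 9454 and 9124 in PWS lines. In each pair of values the copies varied together, with line 2 highest and an overlap between lines 16 and 3. The log2 fold changes were -0.35 (standard error 0.17, limma adjusted p = 0.474) and -0.34 (standard error 0.16, limma adjusted p = 0.473), and without Control line 2 both were -0.14. Only 5.34% and 0.0755% of their reads were unique, so nearly all reads of both rows were shared, with which genes the counts do not tell. RSEM, which divides shared reads between copies, gave -0.63 for Hist2h2aa2 and 0.45 for Hist2h2aa3.

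Among the H2B genes, Hist3h2ba had the highest mean, with 7265, 9223 and 6167 normalized counts in Control and 6520, 6071 and 5691 in PWS lines (log2 fold change -0.29, standard error 0.14, limma adjusted p = 0.468). Its groups overlapped through lines 16 and 3, and without Control line 2 the value was -0.14. The pair sharing the promoter window shown above behaved alike in the mean: Hist2h2ac stood at a log2 fold change of -0.28 (standard error 0.13) and Hist2h2be, with 99.9% unique reads, of -0.26 (standard error 0.13). By line they were unlike. Hist2h2ac had 6675, 8505 and 5759 in Control and 5922, 5516 and 5626 in PWS lines, with line 2 on top. Hist2h2be had 339, 330 and 330 in Control and 242, 265 and 334 in PWS lines, with line 2 not above the other Control lines and line 19-4 at the Control level.

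The other head-to-head pair with 2 tested members, Hist1h2aa and Hist1h2ba, are genes known from testis, and they stood at low levels here. Hist1h2ba had 63.6, 39.5 and 91.4 normalized counts in Control and 69.4, 74.1 and 81.8 in PWS lines, and Hist1h2aa had 28.5, 12.9 and 28.8 in Control and 23.5, 23.9 and 28.2 in PWS lines. For both, Control line 2 was the lowest line, where it was the highest for most clustered genes. Their log2 fold changes of 0.29 (standard error 0.29) and 0.18 (standard error 0.34) were at or under their standard errors, and without line 2 they were below 0 (-0.025 and -0.18).

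Hist2h4a, the single tested H4 gene, had 7488, 10017 and 6592 normalized counts in Control and 7135, 6367 and 6081 in PWS lines. Lines 16 and 3 overlapped, and the log2 fold change was -0.28 (standard error 0.14, limma adjusted p = 0.514), or -0.11 without Control line 2. The H3 gene with the highest mean, Hist2h3c2 ENSRNOG00000050478, had 13357, 16571 and 11897 in Control and 12024, 11005 and 9695 in PWS lines (-0.35, standard error 0.13, limma adjusted p = 0.389), and 83.3% of its reads were unique. Control line 16 was just below PWS line 3 there. Of the H3 genes that did not overlap, ENSRNOG00000060366 had 6382, 8623 and 6549 in Control and 6222, 5945 and 5911 in PWS lines, and ENSRNOG00000053081 had 8667, 11809 and 8930 in Control and 8550, 8171 and 8042 in PWS lines. In both, PWS line 3 was just below the lowest Control line. Their log2 fold changes were -0.24 (standard error 0.11) and -0.23 (standard error 0.12), which became -0.10 and -0.09 without Control line 2.

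**Figure D3:**
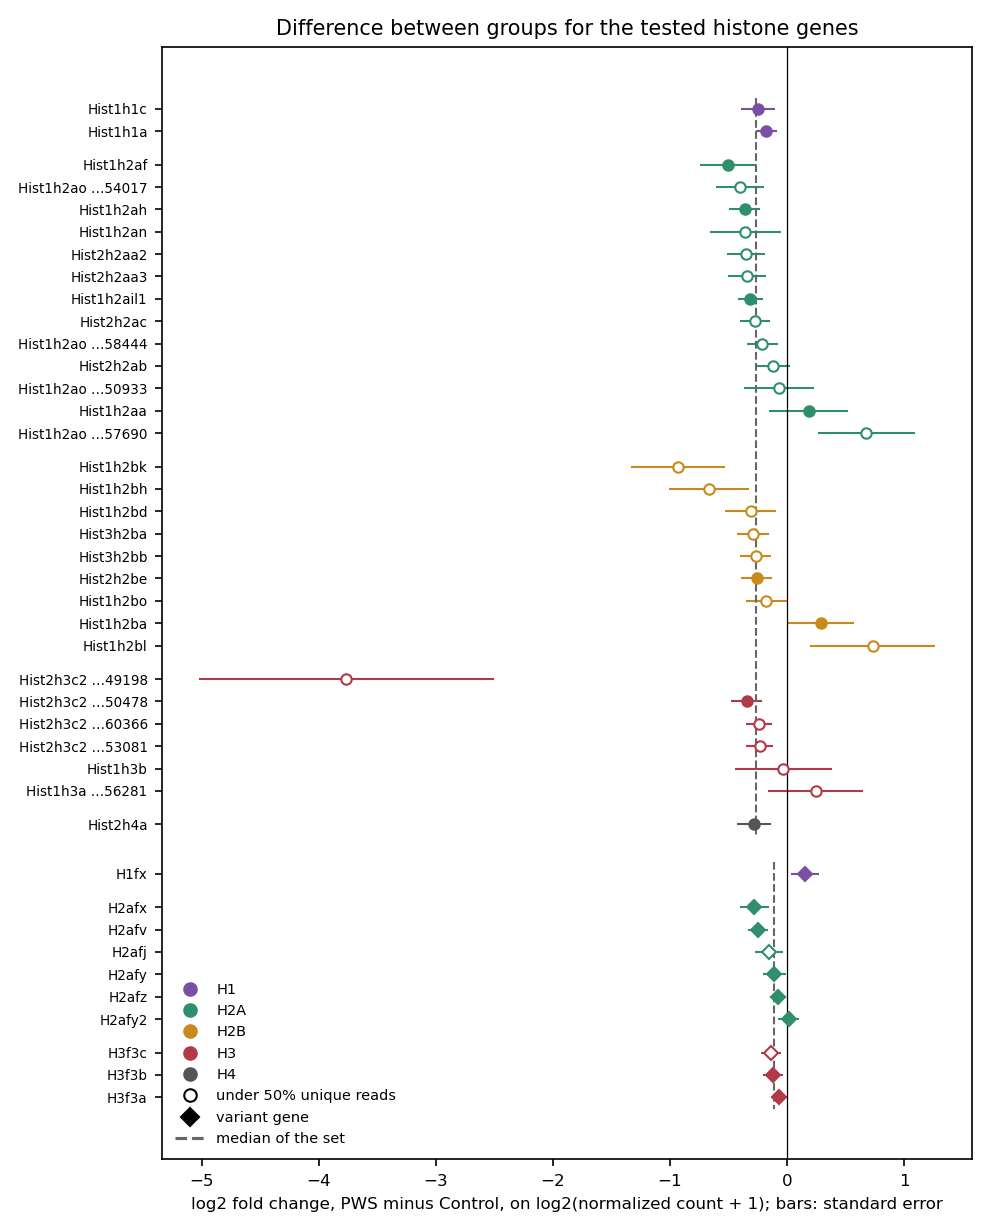
Log2 fold change (PWS minus Control, on log2(normalized count + 1)) of the 41 tested histone genes by family, with standard errors. Circles are clustered and diamonds variant genes, open symbols have under 50% unique reads, and dashed lines mark the medians of -0.27 and -0.12. Genes of 1 name are told apart by the end of their gene ID, and the Hist2h3c2 gene ENSRNOG00000049198 lies far to the left with the widest bar.

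The smallest log2 fold change of all members belonged to Hist2h3c2 ENSRNOG00000049198, with levels of 1412, 1694 and 1273 normalized counts in the Control lines and 1288 in PWS line 3, but 33.5 and 26.4 in the subclones 19-1 and 19-4. The lowest of the other 4 lines was 38.0 times the higher of these 2 subclones. The log2 fold change was -3.76 (standard error 1.26, limma adjusted p = 0.343). On the recovered reads it was -1.69 with edgeR and -1.70 with DESeq2. The gene split the PWS lines by clone and was not called. Without PWS line 3 it was the only member that limma called (-5.56, adjusted p = 4.38e-05, where 0.353% of all tested genes were called). That fit leaves only the subclones 19-1 and 19-4 as PWS lines, so its p-value does not measure a spread between independent clones. With lines 19-1 and 19-4 averaged the log2 fold change was -2.86, and limma called no member. DESeq2 gave no adjusted p for it.

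This gene had almost no reads of its own. Of its 5891 reads 9 (0.153%) were unique, from 1 to 3 in each line including 19-1 and 19-4, so the difference lay in reads that are not unique. The tables do not separate reads that align at several places from reads over overlapping genes, and with 1 to 3 unique reads per line no difference was detectable in the unique reads. Among all 15579 tested genes, a criterion set after seeing these values found 2, Olig1 and this gene, for which every other line was over 10 times both line 19 subclones. The clustered median without it was -0.26.

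Hist1h2bk and Hist1h2bh, H2B genes, had a like dependence on shared reads in a Control line. Hist1h2bk had 488, 187 and 135 normalized counts in the Control lines (5-9, 2 and 16) and 124, 122 and 116 in PWS lines. Hist1h2bh, named after its values were seen, had 625, 258 and 228 in Control and 202, 240 and 188 in PWS lines. Line 5-9 alone was far above the rest in both, and without it their log2 fold changes were -0.39 and -0.21. Over all lines they were -0.93 (standard error 0.40, limma adjusted p = 0.438) and -0.67 (standard error 0.34, limma adjusted p = 0.508). Of their reads 6.17% and 0.170% were unique. From unique reads Hist1h2bk had 4.75, 20.2 and 9.24 in Control and 13.3, 10.7 and 14.6 in PWS lines, with line 5-9 the lowest, and its log2 fold change was 0.36.

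Of the 5 tested clustered genes above 0, Hist1h2ba and Hist1h2aa are given above, and the other 3 were low. Hist1h2bl had 1.90, 5.51 and 3.08 normalized counts in Control and 3.06, 10.8 and 6.36 in PWS lines (log2 fold change 0.73, standard error 0.53). Hist1h2ao ENSRNOG00000057690 had 5.70, 2.75 and 6.16 in Control and 6.13, 8.37 and 10.0009 in PWS lines (0.68, standard error 0.41), and Hist1h3a ENSRNOG00000056281 had 8.55, 9.18 and 4.11 in Control and 11.2, 7.17 and 7.27 in PWS lines (0.25, standard error 0.41). These 3 were near the limit of 3 reads in at least 1 line, and their groups overlapped.

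Shared reads were the rule for the clustered genes. The share of reads unique to the gene was under 50% for 21 of the 31 tested clustered genes (67.7%) and for 2 of the 10 variants, against 16.3% of all tested genes, and under 10% for 12 clustered genes. The median share was 32.6% for clustered and 88.9% for variant genes. Hist2h2aa2 and Hist2h2aa3 had the highest means among members under 10%. With unique reads only, 22 clustered genes had a mean of at least 5 and 18 of them were below 0, with a median of -0.26. In that counting 5 clustered genes did not overlap, all lower in PWS lines and all among the 6 above, where 8.70% of all genes tested in that table did. Hist1h2bk was the gene that dropped out. With RSEM 6 clustered genes did not overlap, all lower in PWS lines (8.87% of all genes tested in that table), and 4 of them were among the 6 above: Hist1h2bk and Hist2h3c2 ENSRNOG00000053081 dropped out, and Hist2h2ac and Hist2h2aa2 came in. RSEM gave a clustered median of -0.26 over 24 genes, among them the 3 H4 genes with equal values.

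**Figure D4:**
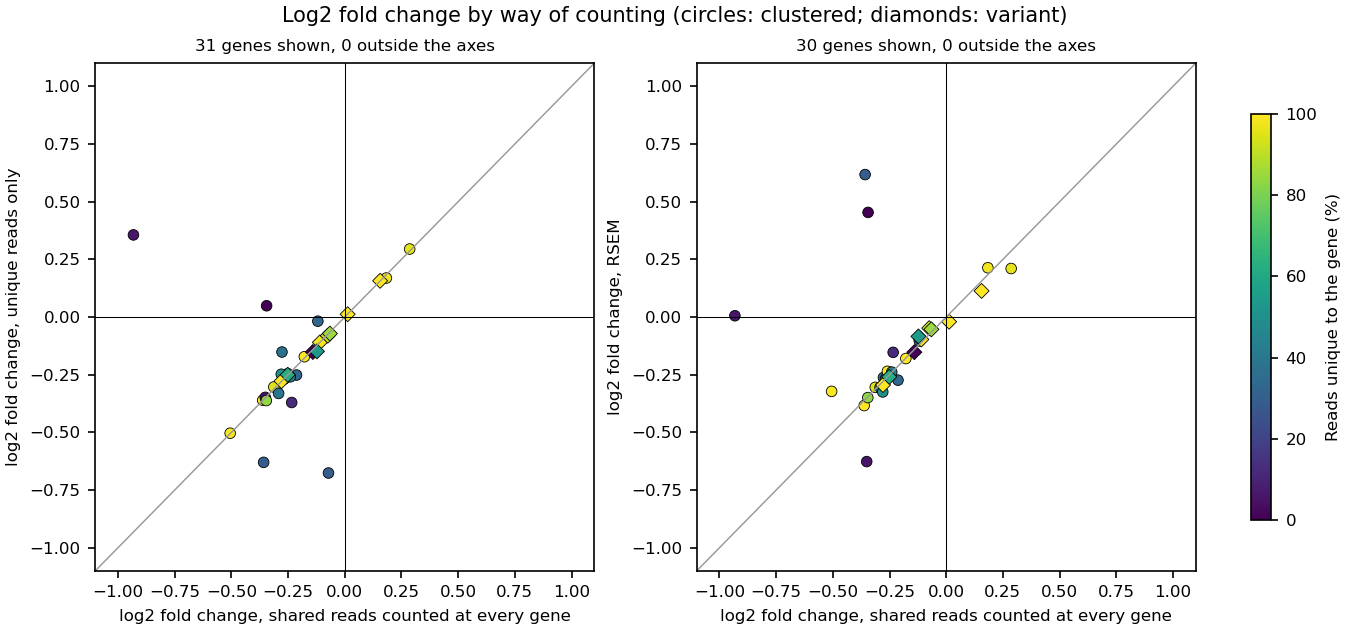
Log2 fold change of each tested histone gene with shared reads counted at every gene (x axis) against unique reads only (left, 31 genes) and RSEM (right, 30 genes), coloured by the percentage of reads unique to the gene. The grey line marks equal values. On the left, genes with over 90% unique reads lie close to the line. On the right Hist1h2af, with 99.1% unique reads, is at -0.32 against -0.51. Hist1h2bk and Hist2h2aa3, with under 10% unique reads, move from below 0 to above it in both panels.

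None of the 10 variant genes was called. H2afv, which encodes a form of H2A.Z, a variant found at promoters and enhancers, was the variant whose groups did not overlap (1 of 10, against 9.01% of all tested genes). It had 1482, 1705 and 1419 normalized counts in Control and 1322, 1308 and 1229 in PWS lines, each PWS line below each Control line, giving a log2 fold change of -0.25 (standard error 0.09, limma adjusted p = 0.350). H2afz, which encodes the other H2A.Z form, had 7423, 7600 and 6953 in Control and 7185, 6574 and 7104 in PWS lines. Its groups overlapped (-0.08, standard error 0.07, limma adjusted p = 0.726).

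H2afx encodes the H2A form that is phosphorylated at DNA breaks, and it had 2010, 2466 and 1775 normalized counts in Control and 1833, 1724 and 1558 in PWS lines. PWS line 3 lay above Control line 16, and the log2 fold change, -0.28 (standard error 0.12, limma adjusted p = 0.444), was near the clustered median. H2afy and H2afy2 encode macroH2A, a large variant enriched on silent chromatin. H2afy had 5416, 6918 and 5503 in Control and 5346, 5374 and 5711 in PWS lines (-0.11, standard error 0.10), and without line 2 its log2 fold change was 0.004. H2afy2 had 470, 502 and 482 in Control and 463, 513 and 491 in PWS lines (0.01, standard error 0.09), with the lines interleaved.

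H2afj, an H2A variant, had 694, 777 and 644 normalized counts in Control and 634, 549 and 722 in PWS lines (-0.16, standard error 0.12), but 0.0245% of its reads were unique. RSEM gave H2afj a level of 0 in every line. The replacement form of H3, which is put into chromatin outside S phase, comes from H3f3a and H3f3b. H3f3a had 14366, 14848 and 13395 in Control and 13183, 14495 and 13050 in PWS lines (-0.07, standard error 0.08), and H3f3b had 7371, 8531 and 6949 in Control and 7058, 7142 and 6718 in PWS lines (-0.12, standard error 0.09). Groups overlapped in both. H3f3c, with 0.676% unique reads, had 6316, 6928 and 5628 in Control and 5650, 5856 and 5557 in PWS lines (-0.14, standard error 0.08), overlapping as well.

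H1fx, a linker histone variant, was on the other side of 0, with 233, 294 and 241 normalized counts in Control and 286, 280 and 285 in PWS lines. Control line 2 was the highest of all 6 lines, so the groups overlapped, and the log2 fold change was 0.16 (standard error 0.12, limma adjusted p = 0.665). Limma's adjusted p ranged from 0.350 to 0.971 over the 10 variants and from 0.343 to 0.984 over the 31 clustered genes.

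The median log2 fold change of the clustered genes was 0.15 below that of the variants, a difference of medians of -0.15 that was -0.08 when line 2 was left out and -0.23 when Control line 16 was. Relative to the Control mean, the median variant stood at -0.04, 0.15 and -0.11 on the log2 scale in Control lines 5-9, 2 and 16 and at -0.13, -0.12 and -0.08 in PWS lines 3, 19-1 and 19-4. Line 2 was high for both kinds, and the excess was smaller for the variants.

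S-phase genes were set beside the histones, since the clustered genes are transcribed in that phase. Of 52 genes of DNA replication and E2F control 51 were tested, and limma called none (12 under an unadjusted p of 0.05, all lower, 23.5%, against 11.3% of all genes). Log2 fold changes were below 0 for 44 and above 0 for 7, with a median of -0.11, and 19 (37.3%) did not overlap, all lower in PWS lines, against 9.01% of all tested genes. By line the median S-phase gene stood at 0.00, 0.02 and -0.04 on the log2 scale in Control lines 5-9, 2 and 16 and at -0.13, -0.17 and -0.08 in PWS lines 3, 19-1 and 19-4. The groups did not overlap in this median, and line 2 was not raised in it as it was for the clustered histones. Without line 2 the S-phase median was -0.10. DESeq2 called 1 of these genes, Rrm2, against 1.46% of all genes, and edgeR none (13 under an unadjusted p of 0.05, against 11.4%).

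Rrm2, a subunit of the enzyme that makes deoxynucleotides, had the smallest log2 fold change of the list, with 2729, 2471 and 2767 normalized counts in Control and 2152, 1905 and 2048 in PWS lines (-0.38, standard error 0.08, limma adjusted p = 0.211). The groups were well apart. Asf1b, a chaperone that carries new H3 and H4, had 1167, 1137 and 1004 in Control and 969, 865 and 767 in PWS lines (-0.35, standard error 0.11, limma adjusted p = 0.316), also without overlap. Cdt1 and Tipin had the largest values of the list, 0.13 (standard error 0.12) and 0.11 (standard error 0.10). Pcna, the replication clamp, was at -0.16 (standard error 0.08), and the cyclins that start S phase, Ccne1 and Ccne2, were at -0.08 (standard error 0.12) and -0.23 (standard error 0.14), all with overlapping groups.

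Genes of mitosis, on a list of 24 of which 22 were tested, were all below 0, with a median of -0.25. For 14 of them (63.6%) all PWS lines lay below all Control lines, against 9.01% of all tested genes. At an unadjusted p under 0.05 in limma there were 17 (77.3%, against 11.3% of all tested genes), and limma called none. DESeq2 called 2, Kif20a and Prc1, against 1.46% of all genes, and edgeR none (15 under an unadjusted p of 0.05, against 11.4% of all genes). Cdc20, an activator of the anaphase-promoting complex, had 2849, 4103 and 2748 normalized counts in Control and 2602, 2221 and 2065 in PWS lines (-0.48, standard error 0.16), and Prc1, a protein of the mitotic spindle midzone, was at -0.36 (standard error 0.08). At the other end, Aurkb and Mki67 stood at -0.05 (standard error 0.08) and -0.10 (standard error 0.08). By line the median mitosis gene was at 0.08, -0.05 and -0.03 in Control lines 5-9, 2 and 16 and at -0.13, -0.28 and -0.30 in PWS lines 3, 19-1 and 19-4. Control line 2, the highest for the histones, was thus the lowest Control line for mitosis genes, and the part of cell-cycle position in the histone values was not tested.

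**Figure D5:**
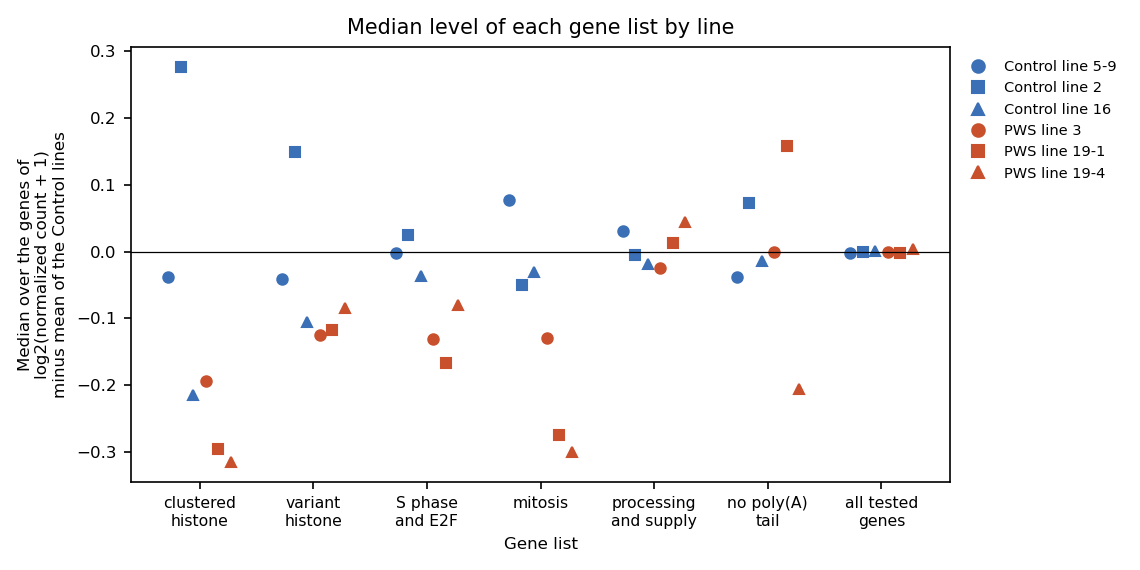
Median over the genes of each list of log2(normalized count + 1) less the Control average, by line (points, 3 Control in blue and 3 PWS in orange). Control line 2 is at 0.28 for clustered histone genes but near 0 for S-phase genes, and the PWS lines lie below every Control line for the S-phase and mitosis lists. For processing and supply genes line 3 is the lowest of the 6 lines and line 19-4 the highest, all within 0.05 of 0.

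Genes of the machinery that makes histone mRNA and carries histones were spread over both sides of 0. The list held 36 symbols in 37 tested rows, with 16 below 0 and 21 above, a median of 0.03, and no gene called by limma, edgeR or DESeq2. At an unadjusted p under 0.05 there were 4 rows in limma (10.8%), 4 in edgeR and 3 in DESeq2, against 11.3%, 11.4% and 10.4% of all genes. It shares Asf1b, Chaf1a, Chaf1b and Slbp with the S-phase list. Npat, the coactivator of clustered histone transcription, had 1501, 1527 and 1433 normalized counts in Control and 1461, 1519 and 1560 in PWS lines (0.03, standard error 0.07), and Casp8ap2, another factor of the histone locus body, was at -0.10 (standard error 0.10). Slbp had 3267, 3048 and 3287 in Control and 2860, 2931 and 3150 in PWS lines (-0.10, standard error 0.07, limma adjusted p = 0.612), with an overlap between Control line 2 and PWS line 19-4.

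Of the remaining genes of this list, Zfp473 and Snrpd3 had the largest log2 fold changes. Zfp473, which takes part in histone 3′ end processing, stood at 0.31 (standard error 0.23), with line 3 the highest at 327 normalized counts and lines 19-1 and 19-4 among the Control lines. Snrpd3, a Sm protein of the U7 particle that cuts histone pre-mRNA and of the spliceosome, had 829, 680 and 910 in Control and 945, 947 and 980 in PWS lines (0.26, standard error 0.11, limma adjusted p = 0.433). All PWS lines were above all Control lines for it. After Asf1b the smallest value was that of Nasp, a chaperone of H1 and H3, at -0.25 (standard error 0.13), with 7964 normalized counts in Control line 2 and 5035 to 6050 in the other lines.

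RNAs that, like the clustered histone mRNAs, end without a poly(A) tail served as a check of the libraries. Of 79 tested rows, 52 were 7SK copies and 22 Metazoa_SRP copies, the median was -0.03, and none was called by limma, edgeR or DESeq2. Groups did not overlap for 6 rows lower in PWS lines (7.59%, against 9.01% of all tested genes) and 2 higher (2.53%, against 8.43%). Both rows of U7, the RNA of the particle that cuts histone pre-mRNA, were among the 6, at 149, 166 and 159 normalized counts (162 in line 16 for the other row) in Control and 146, 134 and 145 in PWS lines. With equal values in 5 of the 6 lines these rows are not independent, and their log2 fold changes were -0.16 and -0.17 (standard error 0.12 each, limma adjusted p = 0.675 and 0.656). At an unadjusted p under 0.05 there were 6 in limma (7.59%), 11 in edgeR and 7 in DESeq2, against 11.3%, 11.4% and 10.4% of all genes. The medians by line were -0.04, 0.07 and -0.01 in Control lines and 0.00, 0.16 and -0.21 in PWS lines 3, 19-1 and 19-4, with 19-1 and 19-4 on opposite sides. PWS line 19-1 stood far above the other lines at 3 Metazoa_SRP copies, with 17280 normalized counts against 142 to 222 at ENSRNOG00000060374, 18429 against 898 to 1113 at ENSRNOG00000055825 and 19874 against 1144 to 4296 at ENSRNOG00000053717. Rn7sl1, the 7SL RNA itself, had 944452, 1112770 and 1054510 in Control and 1042650, 864083 and 781096 in PWS lines, with line 2 highest and line 19-4 lowest. Rpph1, the RNA of RNase P, was at 76523, 93658 and 78088 in Control and 84632, 76566 and 76306 in PWS lines, with line 2 again highest. Some other RNAs of the list had another highest line. The most abundant 7SK copy, ENSRNOG00000058555, had 287937, 320663 and 306939 in Control and 326341, 282671 and 324475 in PWS lines. Terc was highest in PWS line 19-4, at 223 normalized counts against 218 in Control line 2. The part of library make-up in the histone values was not tested.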

How the data were processed

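Total RNA of 6 INS-1 lines, 3 Control and 3 PWS with 1 library each, was sequenced by the authors after rRNA depletion as stranded paired reads. Per the labels and the study's methods, reads were trimmed with cutadapt, aligned with STAR 2.7.0e to the rat Ensembl genome with custom features, and counted with HTSeq 0.11.2 (nonunique all or none) or RSEM 1.3.1. The deposited values are a signal, counts divided by DESeq2 size factors. Nonunique all counting adds a shared read, one that aligns at several places or lies over overlapping genes, to each of its genes. Near-identical histone copies can therefore carry the same reads in several rows, though Hist1h4m, Hist1h4b and Hist2h4 had at most 2 reads in any line. Whole reads were recovered for 100% of values in both HTSeq tables (within 0.01 reads), giving 26016478 to 36084261 reads per line for nonunique all and 17530149 to 23022637 for none. The deposited tables also hold the authors' fold changes and p-values, which were not used.

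Groups were compared with limma 3.58.1 in R 4.3.3 (lmFit and a trended eBayes) after a log2(normalized count + 1) transformation of the 15579 genes averaging 5 or more, with Benjamini-Hochberg adjustment over all of them and a threshold of 0.05. This scale understates the change of low genes. edgeR 4.0.16 (quasi-likelihood) and DESeq2 1.42.0 on the recovered reads, unique reads, RSEM, other pseudocounts, filters and scalings, and each line left out were alternatives. With 3 lines per group an exact two-sided p cannot go below 0.1, so none was computed. Genes were named by a rule: members past the threshold in any tool, in each family those with the highest mean and the largest and smallest log2 fold change, every tested variant, Hist2h2aa2, and the 2 highest members with under 10% unique reads. In the S-phase, mitosis and processing lists the rule took the 2 largest and 2 smallest, with a few fixed genes. Rows given among the RNAs without a poly(A) tail were picked outside this rule. Members, lists and tests were chosen with earlier results of these data known. Promoters came from RefSeq (GRCr8), matched by symbol or synonym. The files give no coordinates for these genes, and the build behind them is not given in the sources used here.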

Additional observations from a re-analysis of the deposited data

How the results depend on the processing

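At an adjusted p of 0.05 no histone gene was called under any alternative except when PWS line 3 was left out, where 1 was (Hist2h3c2 ENSRNOG00000049198, 0 to 1 called over the left-out lines, for all members and for clustered genes alike). Both PWS lines of that fit were subclones of line 19. DESeq2 at an adjusted p under 0.1 gave Hist1h2bk (0.0926), and limma at that threshold none. DESeq2 called 1 S-phase and E2F gene where limma called 0. Over all tested genes limma called 40, against 228 by DESeq2, 9 with a mean of at least 50, 16 with unique reads and 12 with RSEM. Clustered genes that did not overlap numbered 7 to 18 over the left-out lines against 6, where fewer lines by themselves make an overlap less likely (13.2 to 15.7% of all tested genes against 9.01%). The medians of the clustered, variant, S-phase, processing and mitosis genes and the clustered sum kept their sign in every alternative run for them. Other medians and the variant sum were not followed through all alternatives. Over the left-out lines the clustered median ran from -0.41 to -0.12, the variant median from -0.17 to -0.04, and the clustered sum from -0.40 to -0.16. Without Control line 2 the log2 fold change moved by over 1.5 times for 25 of 32 histone genes given by name (23 named by the rule and 9 outside it), and without any other line for 4 to 9. Of 528 values of these genes under alternatives, 515 kept direction and side of the threshold, 1 passed it and 12 changed sign. These were Hist1h2bk (0.36 with unique reads, 0.0056 with RSEM), Hist2h2aa3 (0.049 and 0.45), Hist1h3a ENSRNOG00000056281 (-0.071 without Control line 16, up to 0.43 over the left-out lines), H2afy (0.0041 without Control line 2, down to -0.17), Hist1h2ba (-0.025 to 0.57 over the left-out lines), Hist1h2aa (-0.18 to 0.37) and H2afy2 (-0.020 with RSEM, -0.022 to 0.051 over the left-out lines, -0.0062 with lines 19-1 and 19-4 averaged). The cause was not tested. Control and PWS lines share replicate numbers in the labels, but the numbers did not pair them: same-numbered lines had deviations correlated at 0.00, 0.05 and 0.01. With a replicate block the clustered median was -0.27, and 0 histone genes were called. Low counts limit most of the 13 untested clustered genes. Hist1h4m, Hist1h4b and Hist2h4 were near 0 in both HTSeq tables and not in RSEM, for which the cause was not tested, and for genes with few unique reads the reads cannot be told apart from those of other genes.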
